A study of Oryza sativa with 12 samples.

Results

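Leaf transcripts of a rice f3h line were compared with those of its wild type (WT), the cultivar ZH11, by RNA-seq. The comparison rested on 6 libraries, 3 of WT leaf and 3 of f3h leaf, of the 12 libraries of a series that also sampled roots. All genes that passed an expression filter on these 6 libraries were taken, 22438 of the 37960 genes in the deposited count table. Both genotypes were grown from germination in Kimura nutrient solution at 28 °C with 12 h of light and 12 h of dark, and were sampled at an age of 1 month. The WT carried no modification that the labels name. The other genotype is labelled an f3h knockdown. The series' design text instead speaks of CRISPR material, and the sources used here give no allele, target locus or number of independent lines. No agent was applied to either genotype. Whether replicates were separate plants or pools is not in the labels. The p-values therefore measure only how far these libraries differ, which may be technical spread.

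Flavanone 3-hydroxylase, the enzyme after which the line is named, turns flavanones into dihydroflavonols. Chalcone synthase and chalcone isomerase supply the flavanones, and flavone-forming enzymes of grasses draw on the same pool. In rice leaves flavones are the main flavonoids, and flavonoids as a class are known for absorbing ultraviolet light and for antioxidant activity.

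The leaf libraries held 31171931 to 37821918 counts. Levels are given as CPM, a gene's counts scaled to 1000000 counts of the library, and errors of means are SD over 3 libraries. Log2 fold changes are f3h leaf minus WT leaf. Their errors are approximate standard errors, the fold change divided by the square root of the F statistic of its test. For genes with few or no counts in a genotype, the fitted fold depends on the prior count, and these errors do not measure its precision. WT leaf replicate 1 stood apart. Its log2 CPM differed by at least 2-fold from the mean of WT leaf replicates 2 and 3 for 10.5% of tested genes (941 higher, 1410 lower), against 3.76% to 5.40% when each of the other 5 libraries was set against its own group. Across genes, which are not independent replicates, it correlated with the other WT libraries at r = 0.966 and 0.968, while the other pairs within a genotype lay between 0.983 and 0.985. The calls and fold changes of single genes and the counts of list members were therefore also computed without it. The size classes, the share of non-overlapping genes, the genes read in 1 genotype, and the chromosome, window and run descriptions use all 6 libraries only. The leaf label was checked against cell type markers. The 6 mesophyll markers summed to 34230 to 41590 CPM in WT leaf and 29780 to 30150 CPM in f3h leaf, against 5.60 CPM in WT root. The f3h libraries lay below the WT libraries in this sum. Of these 6 markers, all tested, only 1 fell and 1 rose at an adjusted p under 0.05. The lower sum was thus not a fall of every marker. The marker that fell was CAB2R, from a mean of 16680 CPM in WT leaf to 5716 CPM in f3h leaf. This fall was larger than that of the sum, so the other markers together were not lower in f3h leaf. The part of leaf cell content in the falls of leaf genes given below was not tested. The 6 root markers summed to 10.8 to 17.1 CPM in WT leaf and 10.7 to 14.2 CPM in f3h leaf, against 3790 CPM in WT root, and the silicon exporter gene LSI2 and the Casparian strip gene CASP1 had no count in WT leaf. The 6 markers of dividing cells summed to 29.9 to 31.8 CPM in WT leaf and 26.8 to 29.2 CPM in f3h leaf. As the samples were whole leaf tissue, fewer cells of a type and less RNA per cell cannot be told apart in any result that follows.

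The loci listed for flavanone 3-hydroxylase were examined first, since the line carries this name. None of their listed names was found in the reference, so it was not checked that they encode this enzyme. Os10g0536400 stood at 57.4, 51.6 and 52.0 CPM in the WT leaf libraries and 87.7, 81.4 and 86.8 CPM in the f3h leaf libraries (log2 fold change 0.70 ± 0.09, adjusted p = 0.000267). Os03g0122300, listed as a similar gene, stood at 46.7, 28.3 and 32.1 CPM in WT and 25.6, 22.5 and 23.6 CPM in f3h leaf (log2 fold change -0.55 ± 0.17, adjusted p = 0.0338). The WT value of the latter was highest in replicate 1, and without that library its log2 fold change was -0.30 (adjusted p = 0.0105). Leaving out an f3h library ended the call in each of the 3 cases (adjusted p = 0.0729, 0.123 and 0.115). The other 2 listed loci, Os04g0662600 and Os04g0667200, were too low in leaf to be tested. Thus the tested locus with the higher level was above WT in every f3h library. In an edited line the RNA level does not check the edit.

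Of the 14 genes listed for flavonoid synthesis, 8 were tested, 3 rose and 3 fell. The chalcone synthase gene CHS1 (Os11g0530600), whose enzyme makes the first flavonoid skeleton, stood at 6.42, 4.54 and 5.32 CPM in WT leaf and 23.3, 25.3 and 26.2 CPM in f3h leaf (log2 fold change 2.23 ± 0.15, adjusted p = 6.64e-06). The chalcone isomerase gene CHI (Os03g0819600) stood at 88.7, 156 and 170.2 CPM in WT and 158, 156 and 147 CPM in f3h leaf, short of the threshold (adjusted p = 0.531). The f3h libraries lay within the WT range for CHI, and the low WT value was that of replicate 1. Among listed loci with no name in the reference, Os10g0317900 rose (log2 fold change 1.22 ± 0.15), while Os06g0102100 (log2 -2.28 ± 0.23) and Os10g0320100 (log2 -3.11 ± 0.50) fell. The listed dihydroflavonol reductase and anthocyanidin synthase genes, which act after flavanone 3-hydroxylase, were too low in leaf to be tested in either genotype.

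Across all tested genes, 4021 were higher in f3h leaf (17.9%) and 4167 lower (18.6%), 8188 in all (36.5%), at an adjusted p under 0.05 in edgeR's quasi-likelihood test. This share is the background for the member counts below that use all 6 libraries. The hand-chosen lists as a whole lay above it, as 52.5% of their 303 tested members with a checked name were called. With WT leaf replicate 1, 2 or 3 left out in turn, the share over all tested genes was 48.4%, 30.9% and 33%. With f3h leaf replicate 1, 2 or 3 left out in turn, it was 25.8%, 25.1% and 25.7%. Member counts given without a library are to be read beside these shares. With a further limit of 2-fold, 1630 genes were higher (7.26%) and 1811 lower (8.07%). For 52.3% of tested genes the 3 libraries of one genotype lay wholly above or below those of the other. Most changes were small. Of the genes called higher, 2391 changed by under 2-fold, 944 by 2- to 4-fold, 288 by 4- to 8-fold and 398 by 8-fold or more, and of those called lower 2356, 1197, 369 and 245 did. The median log2 fold change over all tested genes was -0.02. The gene with the highest count was the light-harvesting gene CAB2R in every WT leaf library and the locus Os09g0537700 in every f3h leaf library. The latter has no checked name. It stood at 826, 982 and 1071 CPM in the WT libraries and 14430, 14190 and 14120 CPM in the f3h libraries (log2 fold change 3.92 ± 0.12, adjusted p = 4.55e-08).

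**Figure D1:**
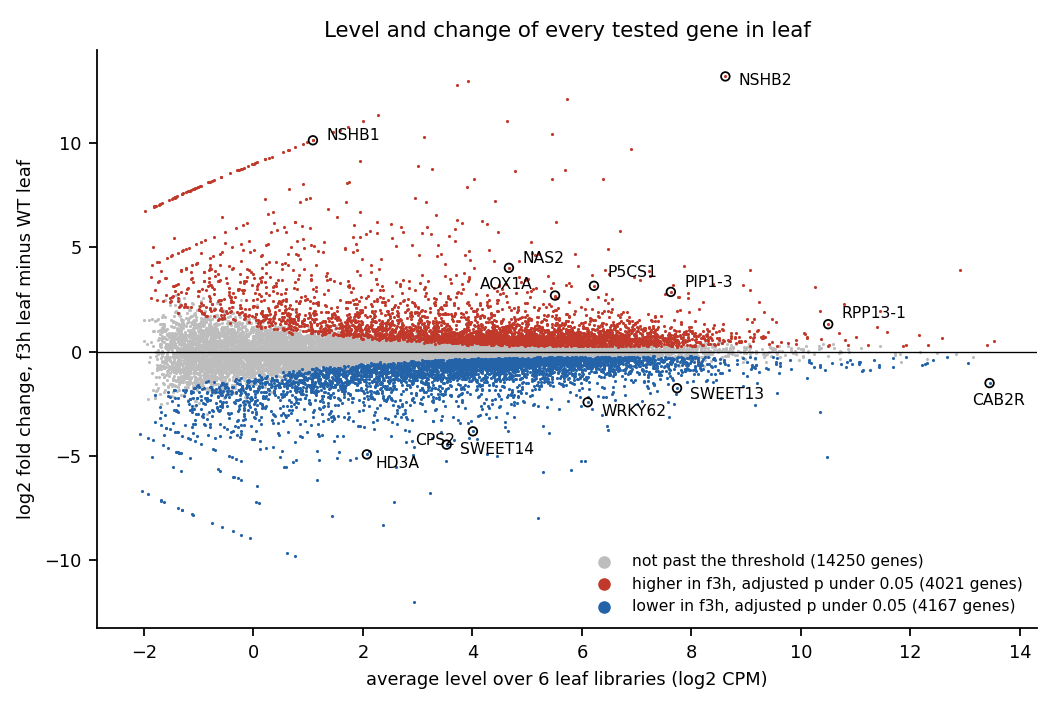
Log2 fold change of f3h leaf against WT leaf (vertical axis) over the average level in the 6 leaf libraries in log2 CPM (horizontal axis), 1 point per tested gene, with 4021 genes called higher in red, 4167 called lower in blue and 14250 others in grey. Circled genes are named, NSHB2 has the largest fitted rise, and the straight lines of points at the outer edges are genes with no count in 1 genotype, whose fitted fold change depends on the prior count.

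The largest rise among named genes was in a haemoglobin. Plant haemoglobins of this type scavenge nitric oxide and are known for their induction by low oxygen and by nitrate. Of 12 genes listed for low oxygen and haemoglobin, 9 were tested, 6 rose and none fell, with a list median of 1.41 on the log2 scale. NSHB2 (Os03g0226200), a non-symbiotic haemoglobin gene, stood at 0.193, 0.0571 and 0 CPM in WT leaf and 749, 845 and 739 CPM in f3h leaf (log2 fold change 13.21 ± 0.32, adjusted p = 2.45e-08). Of its few WT counts most were in replicate 1, and without that library the log2 fold change was 14.57. In roots, where the gene is expressed in WT too, its mean was 959.8 CPM in WT and 621 CPM in the f3h line, so its level in f3h leaf lay in the range of the root means. The related NSHB1 (Os03g0233900) was at 0 counts in all WT leaf libraries and at 4.68, 3.44 and 4.04 CPM in f3h leaf, a level at least 136-fold higher against a floor of 3 counts over the WT group. AOX1A (Os04g0600200), the alternative oxidase of mitochondria that bypasses part of the respiratory chain, rose from 11.6, 11.9 and 13.5 to 73.1, 86.1 and 74.4 CPM (log2 fold change 2.69 ± 0.12, adjusted p = 5.88e-07). No f3h library overlapped a WT library for these 3 genes. ADH1 (Os11g0210300), an alcohol dehydrogenase of fermentation, rose from 24.9 ± 3.70 to 62.1 ± 1.82 CPM (mean ± SD, n = 3; log2 1.34 ± 0.12), and the sucrose synthases SUS1 and SUS4 rose as well (log2 2.39 and 1.41). ADH2 (log2 0.48, adjusted p = 0.573) and SUS2 (log2 0.56, adjusted p = 0.0691) did not pass, and both pyruvate decarboxylase genes of the list, which act just before alcohol dehydrogenase, were too low to be tested.

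Genes of flowering time held some of the largest falls. In rice, the florigen gene HD3A is expressed in leaf vasculature and its protein moves to the shoot tip, where genes such as MADS14 are turned on. HD3A (Os06g0157700) stood at 6.48, 10.4 and 7.48 CPM in WT leaf and 0.354, 0.433 and 0 CPM in f3h leaf (log2 fold change -4.94 ± 0.60, adjusted p = 0.000224), with a log2 fold change of -4.31 without f3h leaf replicate 3, which had no count. MADS14 (Os03g0752800), a MADS box gene of floral fate, fell from 97.2, 69.9 and 63.8 to 24.8, 23.1 and 24.3 CPM (log2 fold change -1.64 ± 0.15, adjusted p = 4.05e-05). In both genes all 3 f3h libraries lay below all 3 WT libraries. FCA (Os09g0123200), an RNA-binding protein gene of the autonomous flowering pathway, fell from 37.8 ± 3.48 to 24.6 ± 1.21 CPM (log2 -0.59 ± 0.11). The listed locus Os10g0463400, whose name was not found in the reference, fell as well (log2 -3.03 ± 0.36). On the other side, SE5 (Os06g0603000), which encodes a haem oxygenase that makes the phytochrome chromophore, rose from 174 ± 13.3 to 237 ± 12.5 CPM (log2 0.48 ± 0.09), and the photoreceptor genes PHYA and PHYB rose by 0.43 and 0.24 on the log2 scale. In all, 6 of 18 tested members rose and 4 fell. Among genes of the circadian clock, 0 of 12 rose and 7 fell. The smallest p was that of the pseudo-response regulator PRR95 (Os09g0532400) (log2 -1.08 ± 0.08), and the related PRR73 (log2 -0.87) and PRR37 (log2 -0.72) fell too. The evening complex gene ELF3-1 passed as higher without WT leaf replicate 1 (log2 0.27). The sample details used here hold no hour of harvest. For genes with a daily rhythm, in this list or others, genotype and sampling hour thus cannot be told apart.

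**Figure D2:**
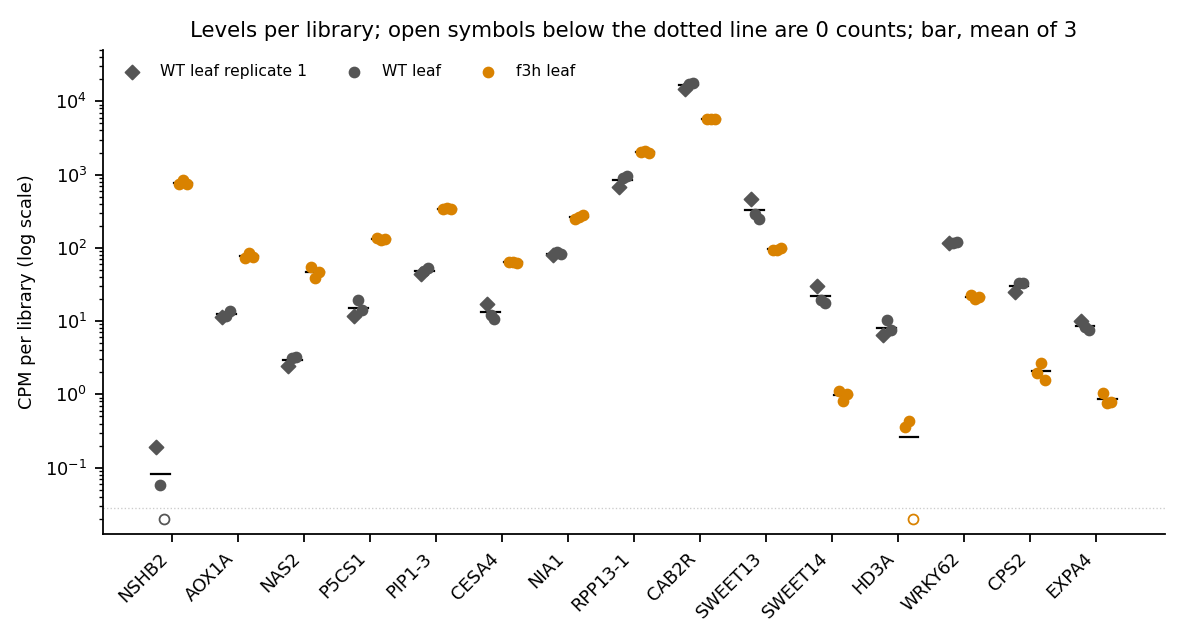
CPM on a log scale of 15 named genes in each leaf library, with WT leaf in grey (replicate 1 as a diamond), f3h leaf in orange, short bars for the mean of 3 libraries, and open symbols below the dotted line for libraries with 0 counts. NSHB2, AOX1A, NAS2, P5CS1, PIP1-3, CESA4, NIA1 and RPP13-1 were higher in all f3h libraries and the other 7 genes lower.

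Sugar exporters were lower in f3h leaf. SWEET proteins let sugars leave cells along a gradient, SWEET13 and SWEET14 carry sucrose, and SUT carriers take sucrose up again, as in phloem loading. SWEET14 (Os11g0508600) stood at 29.9, 19.2 and 17.7 CPM in WT leaf and 1.11, 0.805 and 1.00 CPM in f3h leaf (log2 fold change -4.47 ± 0.25, adjusted p = 2.08e-06). SWEET13 (Os12g0476200) stood at 463, 286 and 251 CPM in WT and 94.3, 93.5 and 101 CPM in f3h leaf (log2 fold change -1.76 ± 0.20, adjusted p = 0.000138). SWEET4 (Os02g0301100), a hexose exporter, fell from 134, 64.0 and 66.2 to 21.1, 24.5 and 21.4 CPM (log2 fold change -1.94 ± 0.26, adjusted p = 0.000423). For all 3 genes WT leaf replicate 1 was the highest library, and without it the log2 fold changes were -4.20, -1.45 and -1.51. MEX1 (Os04g0602400), which exports maltose from starch breakdown out of the chloroplast, fell from 21.7 ± 2.05 to 13.8 ± 0.454 CPM (log2 -0.62 ± 0.12), and the sucrose carrier gene SUT2 fell as well (log2 -0.41). The cytosolic starch breakdown gene DPE2 (Os07g0662900) averaged 256 ± 39.6 CPM in WT and 226 ± 4.01 CPM in f3h, short of the threshold (adjusted p = 0.316). Of 13 tested genes of sugar transport and starch, 0 rose and 6 fell. Without WT leaf replicate 1, 2 rose and 9 fell, with the sucrose carrier SUT1 among the added falls (log2 -0.69, against -0.49 and adjusted p = 0.0592 with all libraries).

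In photosynthesis, several light-harvesting genes and the photosystem I gene PSAH fell, while the Rubisco activase gene rose. Light-harvesting proteins bind chlorophyll around the photosystems, and Rubisco activase keeps the carbon-fixing enzyme open to its substrate. CAB2R (Os01g0600900) stood at 14530, 17500 and 18000 CPM in WT leaf and 5735, 5762 and 5652 CPM in f3h leaf (log2 fold change -1.52 ± 0.10, adjusted p = 4.61e-06). RCABP69 (Os07g0562700), another chlorophyll a/b-binding protein gene, fell from 4169 ± 233 to 2435 ± 71.5 CPM (log2 -0.75 ± 0.08), and PSAH (Os05g0560000), a photosystem I subunit, from 3219 ± 536 to 1715 ± 43.8 CPM (log2 -0.88 ± 0.11). The light-induced gene LIR1 (Os01g0102900), whose protein ties ferredoxin reductase to the thylakoid, fell as well (log2 -0.58). RCA (Os11g0707000), the activase gene, stood at 11260, 9281 and 9068 CPM in WT leaf and 13590, 13770 and 13760 CPM in f3h leaf (log2 fold change 0.51 ± 0.09, adjusted p = 0.00206). The f3h values of RCA all lay above the WT values. CAB1R (Os09g0346500) stood at 5924, 11660 and 12380 CPM in WT leaf and 8081, 8137 and 7970 CPM in f3h leaf, short of the threshold (adjusted p = 0.368). Its low WT value was that of replicate 1, and without that library it fell (log2 -0.54, adjusted p = 4.36e-14). In all, 3 of 26 tested members rose and 12 fell, and 6 rose and 17 fell without WT leaf replicate 1. PETC (Os07g0556200), the Rieske protein of the cytochrome b6f complex, was among the added rises (log2 0.26, against 0.11 and adjusted p = 0.461 with all libraries). These families hold near-identical copies that may share reads, which makes the values of single members uncertain.

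Of 17 tested genes of chlorophyll synthesis and breakdown, 3 rose and 2 fell. Without WT leaf replicate 1, 5 rose and 4 fell, and without WT leaf replicate 3, 5 rose and 3 fell. The protochlorophyllide reductases, which carry out the light-dependent step, both fell. PORA (Os04g0678700) went from 76.0, 85.9 and 83.7 to 29.0, 30.9 and 27.1 CPM (log2 fold change -1.47 ± 0.10, adjusted p = 7.25e-06) and PORB (Os10g0496900) from 815, 922 and 915 to 624, 601 and 631 CPM (log2 fold change -0.49 ± 0.08, adjusted p = 0.00171). Among genes of earlier steps, CPX (Os04g0610800), a coproporphyrinogen oxidase, rose from 131 ± 3.96 to 197 ± 5.16 CPM (log2 0.61 ± 0.08). CHLD (Os03g0811100), a subunit of magnesium chelatase, rose from 59.0 ± 1.29 to 87.3 ± 4.62 CPM (log2 0.59 ± 0.09). Most members did not share these rises, as 12 of the 17 tested did not pass. The transcription factor genes GLK1 (log2 -0.08, adjusted p = 0.460) and GLK2 (log2 0.18, adjusted p = 0.110), which drive chloroplast development, did not pass, and GLK2 passed as higher without WT leaf replicate 1 (log2 0.15). CHLP (Os02g0744900), a geranylgeranyl reductase that supplies the phytol tail, stood at 1029, 1231 and 1259 CPM in WT and 1378, 1428 and 1352 CPM in f3h leaf (adjusted p = 0.0553), and passed as higher when WT leaf replicate 1 was left out (log2 0.19, adjusted p = 0.000351). It also passed without WT leaf replicate 3 (adjusted p = 0.0372) and in 4 of the other alternatives, among them DESeq2 (adjusted p = 0.0469) and limma voom (adjusted p = 0.0443).

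**Figure D3:**
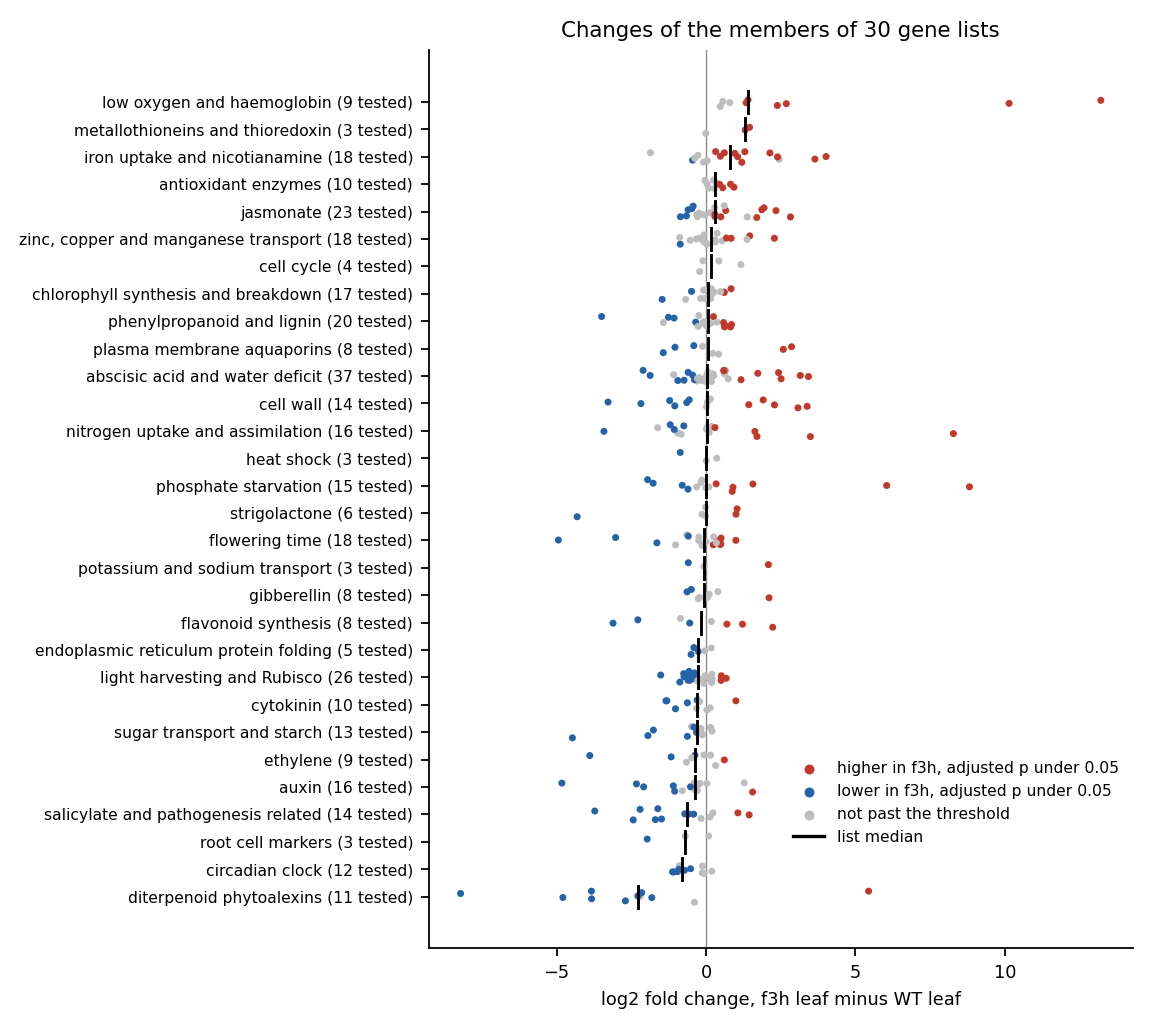
Log2 fold change of f3h leaf against WT leaf (horizontal axis) for every tested member of 30 gene lists (rows, with the number tested), 1 point per member, red for higher and blue for lower at an adjusted p under 0.05, grey for others, and a black bar for the list median. The diterpenoid phytoalexin list has the lowest median, -2.28, and the low oxygen and haemoglobin list the highest, 1.41.

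Cellulose synthase genes of secondary walls rose in f3h leaf, and 2 of those of primary walls fell. Cellulose synthases CESA4, CESA7 and CESA9 form the complex of secondary walls, and CESA1, CESA3, CESA6 and CESA8 belong to primary walls. CESA4 (Os01g0750300) stood at 17.1, 12.3 and 10.8 CPM in WT leaf and 65.0, 64.5 and 62.5 CPM in f3h leaf (log2 fold change 2.29 ± 0.16, adjusted p = 7.19e-06). CESA7 (log2 3.38) and CESA9 (log2 1.91) rose from low levels, as did BC1 (log2 3.08), a COBRA-like gene needed for secondary wall strength. The primary wall gene CESA6 (Os07g0252400) stood at 17.3, 17.2 and 16.5 CPM in WT leaf and 6.64, 6.53 and 8.30 CPM in f3h leaf (log2 fold change -1.22 ± 0.14, adjusted p = 0.000167). CESA1 fell (log2 -0.56), while CESA3 (log2 0.05, adjusted p = 0.828) and CESA8 (log2 0.15, adjusted p = 0.462) did not pass. Expansins loosen walls as cells extend. EXPA4 (Os05g0477600) went from 10.1, 8.31 and 7.51 to 1.03, 0.774 and 0.793 CPM (log2 fold change -3.28 ± 0.23, adjusted p = 8.41e-06) and EXPA2 (Os01g0823100) from 9.14, 17.8 and 15.3 to 3.07, 3.13 and 2.96 CPM (log2 fold change -2.18 ± 0.25, adjusted p = 0.000158), while EXPA1 rose from low levels (log2 1.43). In the whole wall list, 5 of 14 tested members rose and 6 fell. Without f3h leaf replicate 3, 3 rose and 6 fell.

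Of 20 tested genes of the phenylpropanoid and lignin list, 7 rose and 4 fell. COMT1 (Os08g0157500), a methyltransferase of lignin building blocks, rose from 152, 156 and 158 to 237, 234 and 236 CPM (log2 fold change 0.63 ± 0.08, adjusted p = 0.000223). HCT1 (Os04g0500700), a hydroxycinnamoyl transferase, rose from 97.8 ± 2.73 to 147 ± 8.35 CPM (log2 0.62 ± 0.08), and CAD2 (Os02g0187800), a cinnamyl alcohol dehydrogenase, from 19.2 ± 0.866 to 33.2 ± 1.66 CPM (log2 0.82 ± 0.10). 4CL2 (Os02g0697400), a coumarate ligase, fell from 3.24, 3.91 and 5.12 to 0.435, 0.248 and 0.370 CPM (log2 fold change -3.49 ± 0.35, adjusted p = 6.87e-05). The rises in this group were all under 2-fold, and the fall of 4CL2 was the largest change. ROMT-17 (Os08g0498400), an O-methyltransferase gene, passed as higher only without WT leaf replicate 1 or 3 (log2 0.18 and 0.50).

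Among plasma membrane aquaporins, which carry water across membranes, 2 of 8 tested members rose and 3 fell. The second riser, PIP2-4 (Os07g0448100), stood below 1 CPM in every leaf library and lost its call when any library but WT leaf replicate 1 was left out. Without f3h leaf replicate 1 or 3, 1 member rose and 1 fell, and without WT leaf replicate 3, 1 rose and 2 fell. PIP1-3 (Os02g0823100) stood at 44.1, 47.7 and 52.5 CPM in WT leaf and 339.7, 355 and 334 CPM in f3h leaf (log2 fold change 2.86 ± 0.10, adjusted p = 1.53e-07). PIP2-7 (Os09g0541000) stood at 277, 446 and 431 CPM in WT and 143, 145 and 131 CPM in f3h leaf (log2 fold change -1.43 ± 0.17, adjusted p = 0.000202). Their groups did not overlap in either gene, and they moved in opposite directions. PIP1-1 (Os02g0666200), which took the most counts of the list, stood at 1202, 934 and 947 and 743, 781 and 750.3 CPM (log2 -0.41 ± 0.10, adjusted p = 0.0131). This call was lost without f3h leaf replicate 1 or 3 (adjusted p = 0.0642 and 0.0683). PIP2-6 (Os04g0233400) fell (log2 -1.04 ± 0.27), a call lost without WT leaf replicate 3 or f3h leaf replicate 1 or 3 (adjusted p = 0.0551, 0.0601 and 0.0669). In WT leaf replicate 1 the median member of this list was 0.66 lower on the log2 scale than in the other 2 WT libraries (a difference of -0.66), the widest such gap below 0 of any list.

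Hormone genes changed in several pathways. Type-A response regulators are induced by cytokinin and dampen its signal, and cytokinin oxidases (CKX) break cytokinins down. RR9 (Os11g0143300) stood at 217, 135 and 128 CPM in WT leaf and 65.2, 61.2 and 58.5 CPM in f3h leaf (log2 fold change -1.34 ± 0.18, adjusted p = 0.000451). RR1 (Os04g0442300) stood at 19.8, 22.8 and 20.1 CPM in WT and 9.30, 7.49 and 7.96 CPM in f3h leaf (log2 fold change -1.31 ± 0.14, adjusted p = 8.62e-05). RR10, a close copy of RR9 with which it may share reads, fell as well (log2 -1.02). CKX2 (Os01g0197700), an oxidase gene, rose from 58.9, 70.6 and 72.6 to 137, 120.4 and 138 CPM (log2 fold change 1.00 ± 0.11, adjusted p = 0.000128), and CKX4 (Os01g0940000) fell from 102 ± 8.45 to 64.7 ± 5.41 CPM (log2 -0.62 ± 0.10). Of 10 tested cytokinin genes, 1 rose and 5 fell, and without WT leaf replicate 1, 2 rose and 7 fell.

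Aux/IAA proteins repress auxin response and their genes are themselves induced by auxin. Of 16 tested auxin genes, 1 rose and 6 fell, and 2 rose and 8 fell without WT leaf replicate 1. The one that rose, IAA31 (Os12g0601400), stood below 1 CPM in every leaf library (log2 1.56 ± 0.50) and lost its call without any single library other than WT leaf replicate 1. IAA3 (Os01g0231000) stood at 69.6, 48.5 and 42.5 CPM in WT leaf and 25.3, 24.5 and 23.7 CPM in f3h leaf (log2 fold change -1.09 ± 0.17, adjusted p = 0.000842). IAA13 (Os03g0742900) stood at 19.8, 19.9 and 20.1 CPM in WT and 9.82, 8.48 and 9.99 CPM in f3h leaf (log2 fold change -1.05 ± 0.12, adjusted p = 0.000173). IAA9 (Os02g0805100) (log2 -2.09 ± 0.33) and IAA10 (Os02g0817600) (log2 -0.52 ± 0.09) fell too. In IAA3, IAA9, IAA10 and IAA13 each f3h library lay below each WT library. IAA17 (Os05g0230700), with the most counts of the list, stood at 257 ± 26.1 and 210.3 ± 5.81 CPM and did not pass (adjusted p = 0.0632), and it passed as lower without WT leaf replicate 1 (log2 -0.34) and in the fit on all 12 libraries (adjusted p = 0.0250).

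Gibberellin promotes stem growth through the receptor GID1, which binds the DELLA repressor SLR1. GA20OX2 (Os01g0883800), the semi-dwarf gene of the green revolution and an enzyme of gibberellin synthesis, stood at 4.04, 3.68 and 2.84 CPM in WT leaf and 14.4, 17.5 and 12.7 CPM in f3h leaf (log2 fold change 2.11 ± 0.19, adjusted p = 4.22e-05). GID1 (Os05g0407500) stood at 139.5, 109 and 101 CPM in WT and 72.9, 75.2 and 72.4 CPM in f3h leaf (log2 fold change -0.64 ± 0.12, adjusted p = 0.00260). KS1 (Os04g0611800), a kaurene synthase at an early step, fell from 50.7 ± 3.11 to 35.3 ± 3.99 CPM (log2 -0.49 ± 0.11), and KAO (Os06g0110000), a later oxidase, did not pass (log2 0.40 ± 0.14, adjusted p = 0.0569) but did without WT leaf replicate 1 (log2 0.53), with DESeq2 (adjusted p = 0.0481), with all 12 libraries (adjusted p = 0.0109) and with a replicate block (adjusted p = 0.0395). In all, 1 of 8 tested members rose and 2 fell. Without WT leaf replicate 1, 3 rose and 2 fell. For strigolactones, which restrain tillering, both genes of perception rose. D14 (Os03g0203200), the receptor gene, stood at 479.5, 276 and 313 CPM in WT leaf and 680.2, 713 and 702 CPM in f3h leaf (log2 fold change 1.00 ± 0.17, adjusted p = 0.00191), and D3 (Os06g0154200), the F-box partner, at 38.0, 34.0 and 34.6 and 72.6, 73.0 and 69.2 CPM (log2 fold change 1.04 ± 0.09, adjusted p = 3.12e-05). Of the synthesis genes, CCD8B (Os01g0746400) fell from 0.822 ± 0.385 CPM to 4 counts over the f3h group, all in replicate 1 (log2 -4.31 ± 0.98, and -7.80 without that library, a fitted value that depends on the prior count) and CCD7 (Os04g0550600) stood at 3.76 ± 0.261 and 3.65 ± 1.01 CPM and did not pass (adjusted p = 0.972). In all, 2 of 6 tested strigolactone genes rose and 1 fell.

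Of 9 tested ethylene genes, 1 was higher and 3 were lower. Without f3h leaf replicate 3, 1 was higher and 1 lower. ETR2 (Os04g0169100), a receptor gene, rose from 19.0 ± 0.417 to 28.5 ± 1.23 CPM (log2 0.61 ± 0.10), and ACO1 (Os09g0451000), an oxidase of the last step of ethylene synthesis, fell from 5.68 ± 1.54 to 2.48 ± 0.491 CPM (log2 -1.17 ± 0.27), a call lost in the fit on all 12 libraries (adjusted p = 0.0613). The synthase gene ACS2 (Os04g0578000) (adjusted p = 0.286) and the transcription factor gene EIL1 (Os03g0324300) (adjusted p = 0.394) did not pass. In the jasmonate list, 9 of 23 tested members rose and 5 fell. Without WT leaf replicate 1, 10 rose and 9 fell. The lipoxygenases CM-LOX1 (Os08g0508800), from 13.3, 8.34 and 9.40 to 47.2, 50.9 and 55.9 CPM (log2 fold change 2.34 ± 0.17, adjusted p = 1.02e-05), and CM-LOX2 (Os08g0509100), from 15.6, 20.2 and 19.2 to 72.6, 66.4 and 68.3 CPM (log2 fold change 1.94 ± 0.12, adjusted p = 3.79e-06), lie next to each other in the locus order and rose together. The repressor gene TIFY9 (Os04g0395800) rose (log2 1.70 ± 0.16) and TIFY10B (Os07g0615200), the JAZ repressor gene with the most counts in WT leaf, fell from 883 ± 91.0 to 477 ± 19.0 CPM (log2 -0.86 ± 0.09). AOC, the cyclase of jasmonate synthesis, and JAR1, which joins jasmonate to isoleucine, fell too (log2 -0.66 and -0.60).

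Most called defence genes were lower in f3h leaf. In the list of salicylate and pathogenesis related genes, 2 of 14 tested members rose and 9 fell. WRKY62 and WRKY76 are neighbouring genes for transcription factors that are induced by pathogens and restrain defence. WRKY62 (Os09g0417800) stood at 115, 117 and 119.8 CPM in WT leaf and 22.5, 19.9 and 21.2 CPM in f3h leaf (log2 fold change -2.44 ± 0.09, adjusted p = 2.53e-07). WRKY76 (Os09g0417600) stood at 79.0, 106 and 125 CPM in WT and 21.1, 19.1 and 25.7 CPM in f3h leaf (log2 fold change -2.21 ± 0.18, adjusted p = 2.18e-05). The 2 genes and the 2 tested loci beside them, up to Os09g0418500, were all lower by at least 2-fold, with log2 fold changes of -2.21 to -5.30. PBZ1 (Os12g0555500), a pathogenesis related gene of the PR10 family, fell from 119, 161 and 160.4 to 48.5, 43.4 and 41.4 CPM (log2 fold change -1.70 ± 0.14, adjusted p = 1.89e-05). CHT1 (Os06g0726200), a chitinase gene, rose from 36.1, 32.5 and 33.3 to 67.5, 73.2 and 68.4 CPM (log2 fold change 1.07 ± 0.09, adjusted p = 3.01e-05). NPR1, the salicylate receptor gene, fell (log2 -0.71), and WRKY71 (Os02g0181300) passed as lower only without WT leaf replicate 1 (log2 -0.24, against -0.16 and adjusted p = 0.291 with all libraries).

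Diterpenoid phytoalexins are antimicrobial compounds made by copalyl diphosphate synthases (CPS), kaurene synthase-like enzymes (KSL) and cytochromes P450, many of them encoded in gene clusters. Of 11 tested members 8 fell and 1 rose, and the same numbers passed without WT leaf replicate 1. The list as written also holds Os12g0240900, entered under a name from another phytoalexin pathway, and Os01g0196300 and Os04g0637000, entered as regulators. None of these names was found in the reference. CPS2 (Os02g0571100) stood at 25.3, 32.8 and 32.7 CPM in WT leaf and 1.99, 2.72 and 1.56 CPM in f3h leaf (log2 fold change -3.83 ± 0.22, adjusted p = 2.15e-06). KSL6 (Os02g0571800), which lies in the same gene cluster, stood at 14.2, 14.1 and 12.3 CPM in WT and 1.06, 0.619 and 1.08 CPM in f3h leaf (log2 fold change -3.83 ± 0.23, adjusted p = 2.93e-06). CYP701A8 (Os06g0569500), a P450 of the kaurene oxidase family, fell from 31.9 ± 1.59 to 6.41 ± 1.03 CPM (log2 -2.28 ± 0.14), and CPS4 (Os04g0178300), of the momilactone cluster, from 4.29 ± 0.131 to 0.145 ± 0.0764 CPM (log2 -4.79 ± 0.39). The riser, Os02g0569900, went from 0, 0.571 and 0.177 to 8.62, 13.5 and 11.1 CPM (log2 fold change 5.44 ± 0.58, adjusted p = 0.000108) and lies between other loci of the first cluster, so neighbours there moved in opposite directions. The position of its listed name could not be checked.

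**Figure D4:**
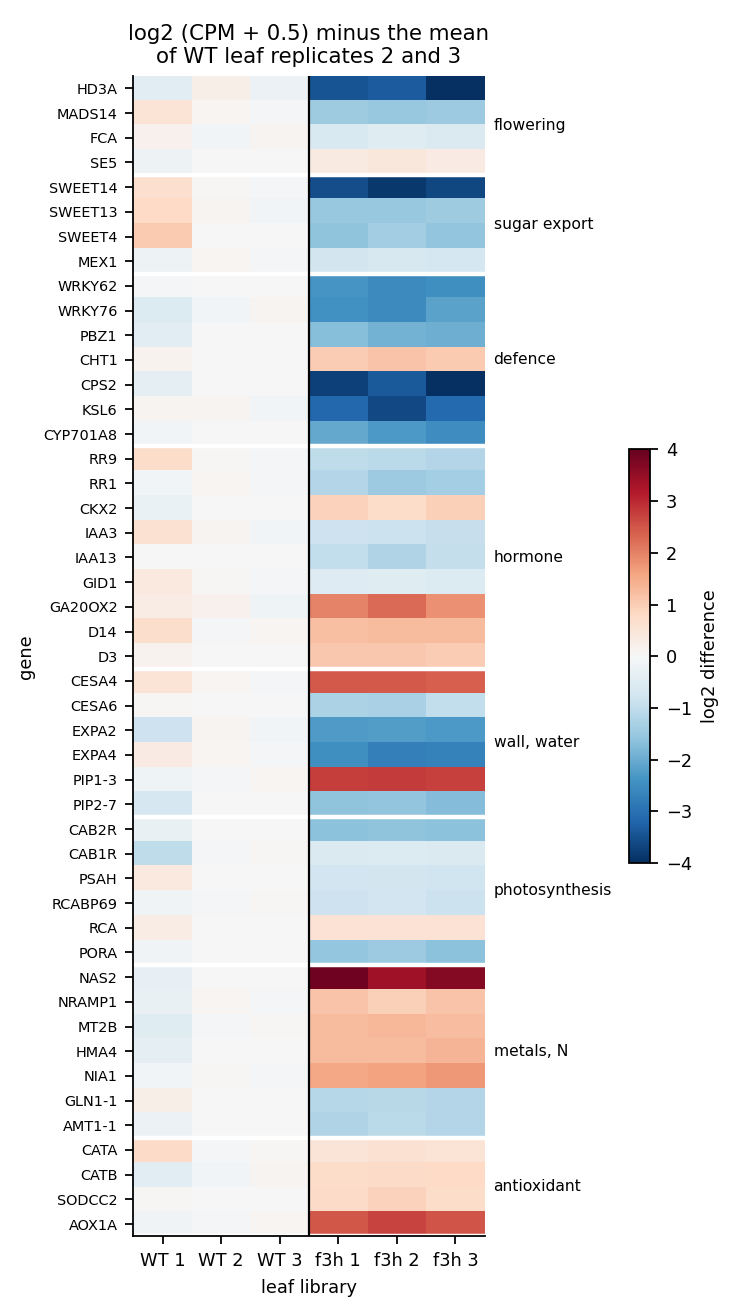
Colour scale of log2 (CPM + 0.5) minus the mean of WT leaf replicates 2 and 3, for 47 named genes (rows, grouped by role) in the 6 leaf libraries (columns). The 3 f3h columns resemble each other in every row, and the WT 1 column departs from the other WT columns in rows such as CAB1R, SWEET4, RR9, CATA and EXPA2.

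Most called genes of metal handling were higher in f3h leaf. Nicotianamine chelates iron, zinc and copper for transport within the plant, and nicotianamine synthases (NAS) make it. Of 18 tested genes of iron uptake and nicotianamine, 11 rose and 1 fell, with a list median of 0.79 on the log2 scale. The list also holds genes with other roles in iron handling, such as VIT1, VIT2, IRO3 and IDEF1, so these counts are not of uptake and synthesis alone. The one that fell, NAAT1 (Os02g0306401), an aminotransferase of the same pathway (log2 -0.45 ± 0.13), lost its call when any library but WT leaf replicate 1 was left out. Without that replicate 12 members rose and 3 fell. NAS2 (Os03g0307200) stood at 2.44, 3.17 and 3.28 CPM in WT leaf and 55.3, 38.8 and 47.5 CPM in f3h leaf (log2 fold change 4.02 ± 0.18, adjusted p = 5.93e-07). IRT2 (Os03g0667300), an importer of ferrous iron, stood at 1.86, 3.34 and 4.35 CPM in WT and 16.6, 16.2 and 16.6 CPM in f3h leaf (log2 fold change 2.39 ± 0.27, adjusted p = 0.000129). NRAMP1 (Os07g0258400), a divalent metal transporter, went from 132, 171 and 152 to 355, 313 and 355 CPM (log2 fold change 1.20 ± 0.11, adjusted p = 4.69e-05). All f3h values lay above all WT values for these genes. YSL2 (Os02g0649900), which moves metal complexes of nicotianamine, went from 404 ± 46.3 to 773 ± 37.8 CPM (log2 0.97 ± 0.10). NAS1 rose as well (log2 3.64 ± 0.22). NAS3 stood at low levels of 1.12 and 0.305 CPM and did not pass (adjusted p = 0.120), and passed as lower without WT leaf replicate 1 (log2 -1.94). The importer genes IRT1 (adjusted p = 0.700) and YSL15 (adjusted p = 0.0567), which serve uptake in roots, stood below 2 CPM in every leaf library and did not pass.

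For zinc, copper and manganese, 4 of 18 tested members rose and 1 fell. Without WT leaf replicate 1, 5 rose and 3 fell. HMA4 (Os02g0196600), a P-type pump that stores copper in vacuoles, stood at 17.3, 22.2 and 22.7 CPM in WT leaf and 54.7, 55.2 and 58.1 CPM in f3h leaf (log2 fold change 1.46 ± 0.12, adjusted p = 2.82e-05). HMA5 (Os04g0556000), which loads copper into the xylem, rose from 0.449, 2.14 and 1.12 to 5.82, 5.69 and 6.45 CPM (log2 fold change 2.29 ± 0.43, adjusted p = 0.00278), with a log2 fold change of 2.93 without WT leaf replicate 2. In the family of metal-nicotianamine transporters, YSL9 (Os04g0542200) rose (log2 0.84 ± 0.13), YSL14 (Os02g0633300) fell (log2 -0.86 ± 0.10) and YSL6 (Os04g0390500), which took the most counts of this list, stood at 131 ± 5.56 and 129 ± 7.26 CPM and did not pass (adjusted p = 0.989). The share of this list that was called, 27.8%, lay below the background of 36.5%. The metallothionein gene MT2B (Os01g0974200), whose protein binds metals through cysteines, stood at 114, 155 and 165 CPM in WT and 386, 404 and 378 CPM in f3h leaf (log2 fold change 1.46 ± 0.14, adjusted p = 5.34e-05), and MT2C (Os05g0111300) at 30.0, 53.0 and 49.2 and 42.2, 41.6 and 45.1 CPM (adjusted p = 0.977). RPP13-1 (Os07g0186000), the thioredoxin h of phloem sap, which passes electrons to protein disulphides, stood at 672, 898 and 944 CPM in WT leaf and 2026, 2127 and 1963 CPM in f3h leaf (log2 fold change 1.31 ± 0.13, adjusted p = 6.69e-05). In this list of metallothioneins and thioredoxin, 2 members rose and none fell, and 1 fell without WT leaf replicate 1.

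Nitrogen genes moved in both directions. Nitrate reductase turns nitrate into nitrite, and glutamine synthetase binds ammonium. NIA1 (Os08g0468100), a nitrate reductase gene, stood at 78.8, 87.7 and 82.0 CPM in WT leaf and 249.5, 261 and 284 CPM in f3h leaf (log2 fold change 1.71 ± 0.09, adjusted p = 1.32e-06). Os02g0770800, listed in this group without a name in the reference, stood at 0.321, 0.571 and 0.710 CPM in WT and 157, 162 and 176 CPM in f3h leaf (log2 fold change 8.28 ± 0.20, adjusted p = 2.45e-08), the largest rise of the list. NIGT1 (Os02g0325600), a repressor of nitrate-induced genes, rose from 0.416 ± 0.255 to 4.64 ± 0.295 CPM (log2 3.49 ± 0.40). The cytosolic glutamine synthetase gene GLN1-1 (Os02g0735200) stood at 809, 684 and 689 CPM in WT and 310.2, 317 and 304 CPM in f3h leaf (log2 fold change -1.20 ± 0.09, adjusted p = 1.11e-05), and the chloroplast form GLN2 (Os04g0659100) at 1885, 1574 and 1577 and 1649, 1685 and 1650 CPM (adjusted p = 0.905). AMT1-1 (Os04g0509600), an ammonium importer, fell from 116 ± 11.1 to 54.6 ± 2.46 CPM (log2 -1.06 ± 0.10). GLU (Os07g0658400), the ferredoxin-dependent glutamate synthase, was higher by a log2 fold change of 0.30 ± 0.08 (adjusted p = 0.0158), a call lost without WT leaf replicate 2 (adjusted p = 0.0578) or without f3h leaf replicate 1, 2 or 3 (adjusted p = 0.0705, 0.0530 and 0.0636). In all, 5 of 16 tested members rose and 4 fell.

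Of 15 tested genes of phosphate starvation, 6 rose and 4 fell. PHR3 (Os02g0139000), a transcription factor gene of this response, stood at 13.5, 13.4 and 14.7 CPM in WT leaf and 44.1, 36.5 and 40.4 CPM in f3h leaf (log2 fold change 1.57 ± 0.11, adjusted p = 9.91e-06). The related PHR1 (log2 -0.14, adjusted p = 0.551) and PHR2 (log2 0.10, adjusted p = 0.492) did not pass, and PHR2 passed as higher without WT leaf replicate 1 (log2 0.18). Phosphate transporters went both ways, with PHT1-4 (Os04g0186400) falling from 9.46, 6.08 and 6.39 to 1.71, 2.07 and 1.75 CPM (log2 fold change -1.95 ± 0.24, adjusted p = 0.000238) and PHT1-8 rising (log2 0.88). Galactolipid synthase genes moved in opposite directions. MGD3 (Os02g0802700) fell from 28.0 ± 1.21 to 15.8 ± 0.459 CPM (log2 -0.80 ± 0.10), while MGD2 (Os08g0299400) rose from 0, 0 and 0.148 to 2.86, 3.77 and 3.78 CPM (log2 fold change 6.05 ± 0.71, adjusted p = 0.000188). All 5 WT counts of MGD2 were in WT leaf replicate 3, so without that library the fitted change (log2 9.93) depends on the prior count. The listed locus Os03g0146800, whose name was not found in the reference, had no count in WT leaf and 1.74, 1.15 and 1.96 CPM in f3h leaf, a level at least 54.6-fold higher. The potassium transporter gene HAK5 (Os01g0930400) rose from 2.95, 2.28 and 3.93 to 13.7, 14.2 and 10.4 CPM (log2 fold change 2.09 ± 0.24, adjusted p = 0.000147), and the sodium transporter gene HKT1-1 (Os04g0607500) fell from 62.4 ± 8.49 to 40.5 ± 1.20 CPM (log2 -0.59 ± 0.11). HAK1 (Os04g0401700) stood at 7.62 ± 0.447 and 7.12 ± 0.671 CPM and did not pass (adjusted p = 0.771). In this list of 3 tested potassium and sodium transport genes, 1 rose and 1 fell.

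Of 37 tested genes of abscisic acid and water deficit, 9 rose and 7 fell. Without f3h leaf replicate 2 or 3, 7 rose and 4 fell in each case. Genes of proline synthesis were among those that rose. P5CS1 (Os05g0455500), the rate-limiting synthetase, stood at 11.8, 19.3 and 14.3 CPM in WT leaf and 135, 128 and 134 CPM in f3h leaf (log2 fold change 3.15 ± 0.17, adjusted p = 1.36e-06), and OAT (Os03g0643300), an ornithine aminotransferase that feeds the same product, at 21.8, 20.1 and 22.5 and 72.2, 67.7 and 69.9 CPM (log2 fold change 1.73 ± 0.10, adjusted p = 1.79e-06). P5CS2 did not pass (log2 0.26, adjusted p = 0.197). LEA3 (Os05g0542500), a protein of drying tissue, rose from 1.13 ± 0.292 to 11.9 ± 1.64 CPM (log2 3.43 ± 0.23). SAPK2 (Os07g0622000), a kinase of abscisic acid signalling, fell from 76.2 ± 2.88 to 49.3 ± 1.06 CPM (log2 -0.60 ± 0.09), and ZEP1 (Os04g0448900), which makes a precursor of abscisic acid, stood at 399 ± 10.4 and 398 ± 5.85 CPM and did not pass (adjusted p = 0.807). The cold-response factors DREB1A (adjusted p = 0.899) and DREB1B (adjusted p = 0.641) did not pass either.

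Among antioxidant enzymes, 4 of 10 tested members rose and none fell, and 7 rose and none fell without WT leaf replicate 1. SODCC2 (Os07g0665200), a cytosolic superoxide dismutase, stood at 156, 147 and 153 CPM in WT leaf and 253, 282 and 252 CPM in f3h leaf (log2 fold change 0.82 ± 0.09, adjusted p = 9.33e-05). SODA (Os05g0323900), the mitochondrial form, rose by 0.56 on the log2 scale and SODCP (Os08g0561700), the chloroplast form, by 0.45, of which the latter call was lost without f3h leaf replicate 1, 2 or 3 (adjusted p = 0.0539, 0.0703 and 0.0532). CATB (Os06g0727200), a catalase gene, rose from 55.0 ± 10.5 to 103 ± 1.66 CPM (log2 0.93 ± 0.14). CATA (Os02g0115700), another catalase gene, stood at 981, 557 and 586 CPM in WT leaf and 818, 873 and 830.5 CPM in f3h leaf, short of the threshold (adjusted p = 0.270). WT leaf replicate 1 lay above the f3h libraries and the other 2 WT libraries below them, and without replicate 1 CATA passed as higher (log2 0.59, adjusted p = 6.98e-12). The ascorbate peroxidases APX1, APX2 and APX8 did not pass (adjusted p = 0.477, 0.770 and 0.757).

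The remaining lists were small. In endoplasmic reticulum protein folding, 0 of 5 tested members rose and 3 fell, namely the chaperone BIP (Os02g0115900) (log2 -0.41 ± 0.09), the stress transcription factor BZIP50 (Os06g0622700) (log2 -0.50 ± 0.12) and calreticulin CRT1 (Os07g0246200) (log2 -0.26 ± 0.08). The call of CRT1 was lost without WT leaf replicate 3 (adjusted p = 0.0735) and without any f3h library (adjusted p = 0.107, 0.132 and 0.140), and that of BZIP50 without f3h leaf replicate 3 (adjusted p = 0.0526). Without that library 1 member of the list fell, and without WT leaf replicate 1, 1 rose and 3 fell. Of heat shock genes 0 of 3 rose and 1 fell, HSP101 (Os05g0519700) (log2 -0.86 ± 0.20), a chaperone that dissolves protein aggregates. In the root marker list 0 of 3 rose and 1 fell, CSLD1 (Os10g0578200) (log2 -1.97 ± 0.46), while the silicon importer LSI1 (Os02g0745100) stood at 9.87 ± 3.25 and 10.3 ± 1.39 CPM in leaf (adjusted p = 0.798). Among cell cycle genes, none of the 4 tested members passed edgeR, DESeq2 or limma voom on the 6 leaf libraries, and none was at an unadjusted p under 0.05 in edgeR. The cyclin gene CYCB2-1 (Os04g0563700), which stood below 1 CPM in every leaf library (log2 1.17 ± 0.55, adjusted p = 0.125), passed as higher in the fit on all 12 libraries (adjusted p = 0.0128). The cyclin-dependent kinase genes CDKB1-1 (adjusted p = 0.333) and CDKB2-1 (adjusted p = 0.632) and the replication clamp gene PCNA (adjusted p = 0.502) were the other members tested.

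Among loci that are in no list and have no checked name, Os09g0537700, described above, and Os07g0142100 had the widest rises in mean CPM. Os07g0142100 stood at 866, 1291 and 1336 CPM in the WT libraries and 4508, 4194 and 4346 CPM in the f3h libraries (log2 fold change 1.93 ± 0.16, adjusted p = 1.97e-05). The widest falls were those of Os04g0650700, from 2977, 2666 and 2746 to 84.3, 81.0 and 82.8 CPM (log2 fold change -5.05 ± 0.09, adjusted p = 1.00e-08), and Os07g0577600, from 7146, 5035 and 5392 to 3624, 3759 and 3440 CPM (log2 fold change -0.67 ± 0.12, adjusted p = 0.00259). Os04g0650700 had the smallest p of all tested genes, and WT leaf replicate 1 was the highest library of Os07g0577600. In roots Os04g0650700 was at 36.3 CPM in WT and 43.2 CPM in f3h.

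Some genes were read in the leaf of only 1 genotype. With no count in any WT leaf library and at least 100 counts in each f3h leaf library there were 10 genes, and with the reverse pattern 1 gene. The folds are lower bounds against a floor of 3 counts over the group, and for the 10 genes they ran from 124 to 985. Besides NSHB1, which takes a mean of 979 CPM in WT root, these included Os08g0410900 with 1102, 1035 and 1020 counts in the f3h leaf libraries (at least 985-fold higher) and Os04g0168300 with 890, 812 and 1069 counts (at least 864-fold higher). In WT root, 5 of the 10 were also below 0.1 CPM, of which 3 reached at least 1 CPM in f3h root, among them Os08g0410900 (0.0729 CPM against 15.4 CPM) and Os04g0168300 (0.0732 and 16.0 CPM). Os01g0845950 had 402, 222 and 401 counts in f3h leaf and averaged 0.151 CPM in the WT roots and 43.3 CPM in those of f3h. The reverse case was Os01g0663051, with 433, 520 and 583 counts in WT leaf and none in f3h leaf, at least 547-fold lower, and in roots it averaged 0.0488 CPM in WT and 0 in f3h. These loci were chosen for this pattern, so their values are a description.

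Leaving out WT leaf replicate 1 raised the number of called genes and left nearly all calls in place. Of 23020 genes tested in that fit, 5721 were higher (24.9%) and 5423 lower (23.6%), 11144 in all (48.4%). Of the 8188 genes called with all libraries, 8030 were called in the same direction without it, 158 were not called, and none was called in the opposite direction. A further 2940 genes of the 22438 were called only without it. The log2 fold change of called genes moved by a median of 0.09, and by over 1.5-fold for 97 of them (1.18%). Among the 2351 genes for which replicate 1 differed by at least 2-fold from the other WT libraries, 21.1% were called with it and 36.2% without it. As these genes were picked for the spread that replicate 1 adds, the higher share without it is no independent result. Of 303 tested list members with a checked name, 159 were called (52.5%, against 36.5% over all tested genes), 75 higher and 84 lower. None of the called members lost its call without replicate 1, and 45 others gained one. The members with the most counts among those that gained a call were CAB1R, GLN2, PETC, ADI1 and CHLP. ADI1 (Os08g0104600) stood at 1654, 1487 and 1537 CPM in WT and 1296, 1401 and 1312 CPM in f3h leaf, and was at a log2 fold change of -0.19 (adjusted p = 0.0853) with all libraries and -0.15 (adjusted p = 0.00504) without replicate 1. GLN2 was at a log2 fold change of 0.02 with all libraries and 0.11 without it.

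**Figure D5:**
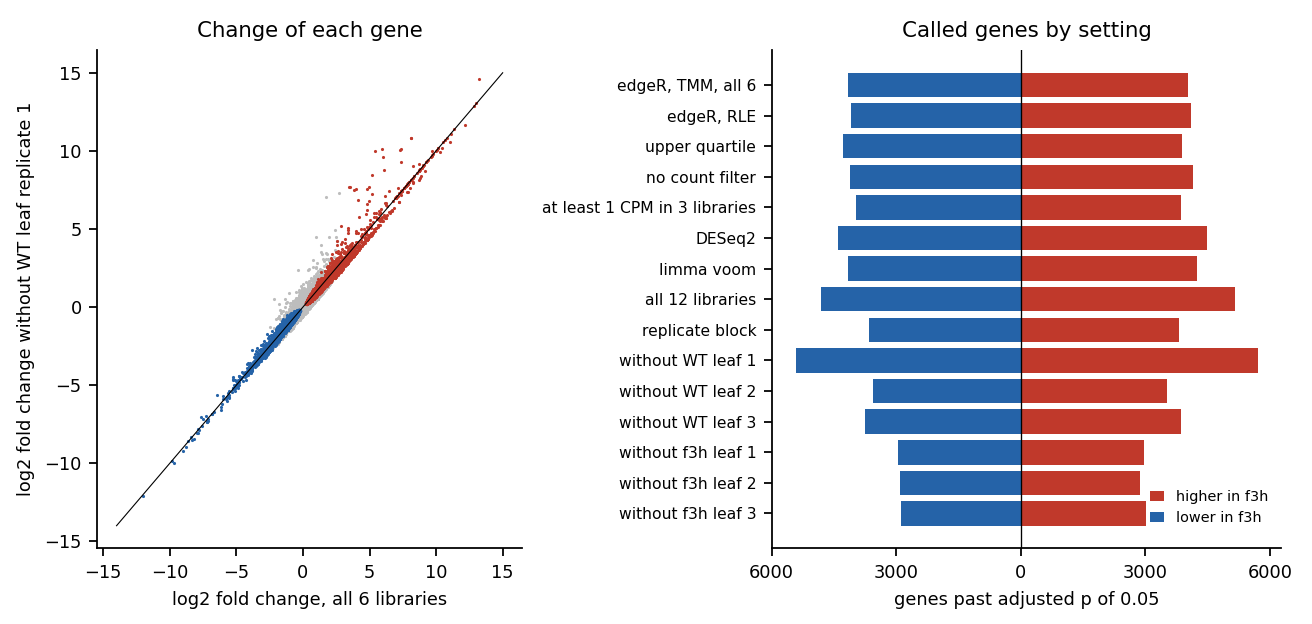
Left, log2 fold change of f3h leaf against WT leaf with all 6 libraries (horizontal axis) and without WT leaf replicate 1 (vertical axis), 1 point per gene, coloured by the call with all libraries (red higher, blue lower, grey neither), with the line of equal values. Right, bars for the number of genes called higher (red) and lower (blue) at each setting, with 4021 and 4167 at the top and 5721 and 5423 without WT leaf replicate 1.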

How the data were processed

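The deposited values are whole-number read counts of each gene, not normalized by the authors, from mRNA libraries of total RNA. The submitters' processing notes name HISAT2, fastp, DESeq and featureCounts. Neither their versions nor the build, annotation and strandedness used are stated in the sources at hand, so reads of overlapping and antisense genes cannot be told apart. The test was edgeR 4.0.16 under R 4.3.3 (filterByExpr, TMM, quasi-likelihood test, Benjamini-Hochberg over all tested genes, threshold 0.05), on the 6 leaf libraries, without a replicate block, since the replicate numbers did not pair the libraries. The alternatives were other scalings and filters, DESeq2 1.42.0, limma 3.58.1 (voom), all 12 libraries, a replicate block, and leaving out each library. The procedure was also run on simulated counts with far fewer and mostly larger changes than here and no library set apart. That run cannot check the scaling or the error rate for these data. Floors and the bounds taken from them cover counting error only, while the errors of means and fold changes include spread between libraries.

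The table gives locus identifiers without names. Of 460 pairs of a name and a locus in 30 hand-written lists, 459 loci were in the counts, 376 names were in the reference table (assembly ASM3414082v1) and 372 lay on the same chromosome within 3% of the gene order of the place in the identifier. Other members are counted but given by locus only, and 1 item is not reported here. The members and lists were chosen with earlier results of these data known, and some lists were extended after values were seen, so list counts are descriptions.

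Genes were named by rule: loci listed for flavanone 3-hydroxylase; among checked names with non-overlapping groups and a mean log2 CPM from 1 upwards, the 10 that rose most and the 10 that fell most; in each list the 4 members with the smallest p and the one with the highest mean CPM; up to 5 members whose call was gained and 5 whose call was lost without WT leaf replicate 1; and 2 rising and 2 falling loci without a checked name. Further members and loci were named after their values were seen.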

Additional observations from a re-analysis of the deposited data

How the results depend on the processing

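The number of genes called in f3h leaf was 8188. It lay between 7449 and 9964 under the other scalings, filters, tools and fits, and no gene called with all 6 libraries was called in the opposite direction under any of the 14 alternatives. Leaving out 1 library at a time gave 5790 to 11144 called genes, the lowest value without f3h leaf replicate 2 and the highest without WT leaf replicate 1, all within 1.5 times of the count with all libraries. With the replicate number as a block, 7449 genes were called. Libraries with the same number did not deviate together (correlations 0.007, 0.008 and -0.037), so the numbers give no pairing. Under the block the calls of CRT1 (adjusted p = 0.0847) and GLU (adjusted p = 0.0514) were lost and KAO gained one (adjusted p = 0.0395). Of 137 named and tested genes, 113 kept their side of the threshold under every alternative that tested them, among them 99 of the 107 called genes, and none reversed. Without WT leaf replicate 1, 14 named genes gained a call and none lost one. Depth limits the low genes: 3 counts over a group correspond to 0.0300 CPM for WT and 0.0281 CPM for f3h.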

Other observations

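Calls of any size were spread over the genome. By the chromosome carried in the locus identifier, the share of tested genes called in f3h leaf ran from 34.8% on chromosome 2 to 38.4% on chromosome 4, beside 36.5% over all tested genes. Calls with a log2 fold change of at least 5 in size were less even. They made up 0.689% of tested genes on chromosome 2 and 1.74% on chromosome 12, the lowest and highest shares. In 444 windows of 50 consecutive tested loci, the share called ran from 18.0% to 58.0%, with a median of 36.0%. No window was called throughout.

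Some neighbouring loci moved together by at least 2-fold. There were 20 runs of at least 4 consecutive tested loci called in the same direction at that size, and the longest held 6 loci. One of these, on chromosome 12 from Os12g0113500 to Os12g0114000, rose with log2 fold changes of 2.46 to 8.38, and the other, on chromosome 9 from Os09g0471100 to Os09g0471800, fell with log2 fold changes of -1.09 to -3.10. On chromosome 4, 5 loci from Os04g0688100 to Os04g0689000 rose with a median of 8.71 on the log2 scale. In that run Os04g0688500 went from a mean of 0.243 CPM in WT leaf to 101 CPM in f3h leaf. Neighbouring members of a gene family may share reads, and the files do not name these loci, so the values of single loci in a run are uncertain. The runs were chosen for moving together, and no test was made of them.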
